A study of Mus musculus with 8 samples.

Results

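The libraries labelled WC and WCS were set against each other across all 37558 genes of the count table, 1 library a side. They are 2 of the 8 libraries of the series, and neither carries a label for the multiplicity of infection (MOI). A count in either library was found for 21993 genes, and 14038 genes had a mean of at least 1 CPM (counts scaled to library size) and are called measured here. P19 cells, a mouse embryonal carcinoma line, had been transduced with lentivirus in the presence of polybrene, given fresh MEMα after 24 h and moved to Neurobasal medium with B27 after 48 h, and oligo-dT libraries of their RNA were sequenced on an Illumina HiSeq instrument. WC and WCS both carried a chimera in which the bHLH domain of NeuroD2 stands in place of MyoD's own, each with mutations that the labels do not define beyond these letters. The other 6 libraries, used here for reference levels, were GFP, MyoD, NeuroD2, the chimera without further mutation, that chimera at an MOI of 100 and WCS at an MOI of 100. No label gives the MOI of the remaining libraries, and the labels name 2 RNA extraction methods, a column kit and Trizol, without saying which library had which.

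MyoD and NeuroD2 are transcription factors of the basic helix-loop-helix (bHLH) class. They pair with E-proteins and bind short DNA elements called E-boxes, of the form CANNTG, and the Id proteins block that pairing. MyoD is known for turning many cell types into skeletal muscle, and NeuroD2 for driving neurons to mature. The comparison of WC with WCS asks which genes differ between the mutants.

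WC had 31381610 counts in genes and WCS 29720496, within the series range of 26410500 to 43984066, so that 3 counts, the floor used for undetected genes, equal 0.0963 CPM in WC and 0.102 CPM in WCS. CPM were scaled by TMM factors, which were 0.993 and 0.991. Each ratio below has an exact conditional binomial (Clopper-Pearson) 95% interval from its 2 counts. The interval covers counting error only: PCR reads are not independent molecules, no second culture of either mutant was measured, and so no test of the mutants was made. Whether a difference exceeds the spread between cultures is therefore not known. In these bulk samples fewer cells of a type and less RNA per cell cannot be told apart.

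The 5 fixed markers of embryonal carcinoma cells (Pou5f1, Nanog, Sox2, Utf1, Lin28a) were all above 1 CPM, with summed levels of 1083 CPM in WC, 1060 CPM in WCS and 2650 CPM in GFP. The 5 neuron markers summed to 1520, 1729 and 252 CPM in the same order, and the 5 muscle markers to 49.2, 26.4 and 47.1 CPM. Of the muscle markers 4 of the 5 were at 1 CPM or more in either mutant. Actc1 made up most of the muscle sums, at 34.6, 19 and 42.3 CPM, and Ttn stood at 7.03, 1.39 and 1.58 CPM. Myog, the factor that starts muscle differentiation, had 2 counts in WC and 0 in WCS, both under the floor. Of the other cell types, 2 of 4 glial, 1 of 4 endothelial, 2 of 5 fibroblast and 0 of 4 endoderm markers reached 1 CPM in either mutant, and Afp and Ttr were at 0 counts in both.

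The delivered coding sequence was itself more abundant in WC. Myod1 had 3296 counts in WC and 2275 in WCS, or 106 and 77.3 CPM, against 0.681 CPM in GFP, 0.804 in NeuroD2, 296 in MyoD, 116 in the chimera, 555 in the chimera at MOI 100 and 857 in WCS at MOI 100. The ratio of WC to WCS was 1.37 (1.3 to 1.44). Neurod2, which supplies the bHLH segment, stood at 15.8 CPM in WC and 14.6 in WCS, a ratio of 1.08 (0.946 to 1.23). Counts per gene do not separate the delivered sequence from the cell's own transcript. The mutations and the amount of construct RNA cannot be told apart in any difference given below.

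WC and WCS were nearly the same at most genes, and the larger differences lay mostly on the WC side. Of 11626 genes that reached 5 CPM in at least 1 of the pair, 83 (0.714%) were at least 1.5-fold higher in WC and 19 (0.163%) at least 1.5-fold lower, 102 (0.877%) in all, on the log2(CPM + 0.5) scale. At 2-fold there were 15 (0.129%) higher and 2 (0.0172%) lower, and at 4-fold 2 higher (0.0172%) and 1 lower (0.0086%). With no minimum level 254 genes were 1.5-fold higher and 91 lower, and with a minimum of 20 CPM 34 and 4. The counting interval was clear of a ratio of 1 for all 83 and all 19, which the 1.5-fold and 5 CPM limits together made nearly certain. Of all 14038 measured genes it was clear of 1 toward WC for 1879 and toward WCS for 1838. Over the 14038 measured genes the ratio was above 1 for 6958 (49.6%) and below 1 for 7080 (50.4%), the median log2 ratio was -0.0013, and the 5th and 95th percentiles were -0.23 and 0.31. The genes past 1.5-fold were of modest level, with a median in their higher library of 14.8 CPM for those higher in WC and 11.9 CPM for those lower. Just inside the 1.5-fold limit were Mgat5b (48.2 CPM in WC, 32 in WCS) and Slc30a1 (12.4 and 8.08), and just outside it Syk (6.77 and 4.35) and Prrx2 (5.04 and 3.19).

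The spread of ratios was close to counting noise at low levels and above it at high levels. In the band from 1 to 5 CPM the log2 ratios of 2520 genes had a robust standard deviation (from the interquartile range) of 0.255, where counting alone gives 0.25 for the median gene. From 5 to 20 CPM the values were 0.155 and 0.111, from 20 to 100 CPM 0.0973 and 0.0558, and at 100 CPM and above 0.073 and 0.0288. How 2 cultures of the same mutant would differ was not measured.

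**Figure D1:**
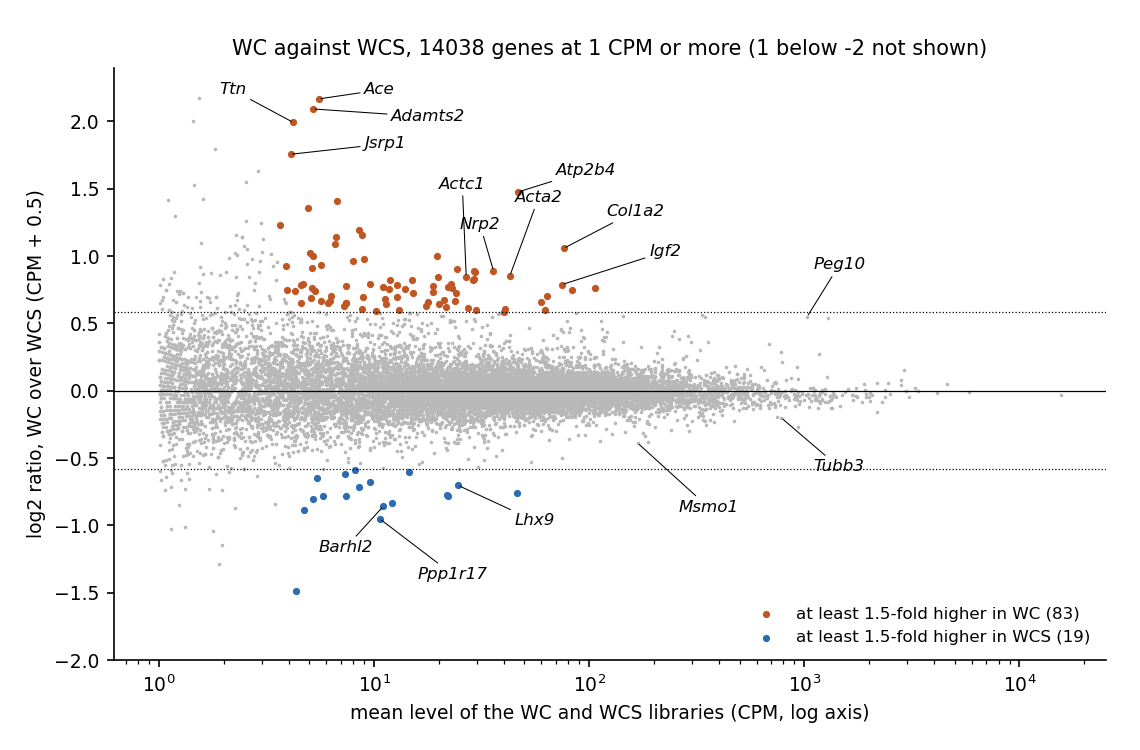
Log2 ratio of WC to WCS, from log2(CPM + 0.5), against the mean level of the pair in CPM on a log axis, 1 point for each of the 14038 measured genes except 1 at -4.59. Orange points mark the 83 genes at least 1.5-fold higher in WC and blue points the 19 at least 1.5-fold lower (1 of them is the gene at -4.59), with the dotted lines at 1.5-fold, and the cloud narrows as the level rises.

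Promoters of genes at both ends of the ranking are shown because the delivered proteins bind E-boxes. Each runs from 250 bases before to 50 bases after a RefSeq start on GRCm38.p6, 5′ to 3′ in the direction of the gene, with 3 E-box forms in capitals. They are CAGCTG, which reads the same on both strands, then CAGGTG, whose other strand reads CACCTG, and CAGATG, whose other strand reads CATCTG, and none overlap in the windows shown. Ace lies on the plus strand at chr11:105967698-105967997 (the first of 2 starts in the table), Adamts2 on the plus strand at chr11:50601835-50602134, Ttn on the minus strand at chr2:76982498-76982797 and Barhl2 on the minus strand at chr5:106458117-106458416.
Ace: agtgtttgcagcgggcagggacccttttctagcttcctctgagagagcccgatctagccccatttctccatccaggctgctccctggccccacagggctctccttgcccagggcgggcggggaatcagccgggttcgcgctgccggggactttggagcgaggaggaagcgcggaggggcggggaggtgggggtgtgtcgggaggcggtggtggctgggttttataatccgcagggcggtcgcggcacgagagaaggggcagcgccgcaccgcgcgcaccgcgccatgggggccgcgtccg
Adamts2: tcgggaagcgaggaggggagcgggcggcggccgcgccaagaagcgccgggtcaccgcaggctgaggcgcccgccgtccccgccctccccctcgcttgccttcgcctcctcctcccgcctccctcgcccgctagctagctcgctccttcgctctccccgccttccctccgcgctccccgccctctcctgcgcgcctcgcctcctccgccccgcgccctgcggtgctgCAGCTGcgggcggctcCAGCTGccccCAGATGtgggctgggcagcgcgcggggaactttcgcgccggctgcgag
Ttn: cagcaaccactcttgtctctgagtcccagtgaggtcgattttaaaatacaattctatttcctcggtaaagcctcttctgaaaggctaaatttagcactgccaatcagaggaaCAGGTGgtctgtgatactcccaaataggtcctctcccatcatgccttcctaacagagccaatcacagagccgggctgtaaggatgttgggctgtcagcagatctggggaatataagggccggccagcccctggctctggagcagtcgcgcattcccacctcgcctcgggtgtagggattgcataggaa
Barhl2: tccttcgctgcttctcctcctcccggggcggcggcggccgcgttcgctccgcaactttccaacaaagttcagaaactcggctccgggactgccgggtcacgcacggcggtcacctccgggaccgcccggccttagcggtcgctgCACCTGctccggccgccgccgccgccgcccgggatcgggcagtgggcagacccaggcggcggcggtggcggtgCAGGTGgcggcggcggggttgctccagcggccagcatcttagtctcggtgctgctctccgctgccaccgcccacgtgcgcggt
The Adamts2 window held 2 CAGCTG and 1 CAGATG, the Ttn window 1 CAGGTG, the Barhl2 window 2 CAGGTG (1 of them on the other strand), and the Ace window none of the 3 forms. The windows of Actc1 and Igf2 also held none. Promoters were in the table for 65 of the 83 genes higher in WC, of which 27.7% held CAGGTG, 18.5% CAGATG and 16.9% CAGCTG. For 13 of the 19 lower genes the shares were 30.8%, 7.69% and 7.69%. Over 8780 genes at 5 CPM or more they were 16.4%, 10.6% and 14%, and over all 27025 listed promoters CAGGTG was held by 20.03%, CAGATG by 17.2% and CAGCTG by 16.1%. A match is a string of letters in this window and is not tied to binding here.

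The genes highest in WC over WCS included a protease of the renin-angiotensin system, a collagen-processing protease and muscle genes. Ace (ENSMUSG00000020681) encodes angiotensin-converting enzyme, a membrane peptidase, and had 292 counts in WC against 50 in WCS. Its levels were 9.37 CPM in WC, 2.79 in WCS at MOI 100 and 1.7 in WCS, against 0.462 in GFP, 0.269 in MyoD, 3.11 in NeuroD2, 3.54 in the chimera and 9.16 in the chimera at MOI 100. The ratio was 5.52 (4.08 to 7.61). WC thus stood at the level of the high-MOI chimera, and both WCS libraries below every library that carried the chimera without further mutation. Adamts2 (ENSMUSG00000036545), which trims the ends of procollagen, had 272 and 49 counts. It stood at 8.73 CPM in WC and 1.66 in WCS, a ratio of 5.24 (3.86 to 7.26), while the other 6 libraries gave 12.1 CPM in NeuroD2 and 1.19 to 2.64 CPM elsewhere. Adamts2 was therefore high in WC and NeuroD2 only, among these 8 libraries.

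Further genes of the top 15 were membrane and signalling genes. Atp2b4, a calcium pump of the plasma membrane, was better counted than the leading genes, with 2144 and 719 counts. It stood at 68.8 CPM in WC and 24.4 in WCS, a ratio of 2.82 (2.59 to 3.07), and between 19.4 and 24 CPM in GFP, NeuroD2 and both MOI 100 libraries, against 69.8 in MyoD and 51.8 in the chimera. The WC level thus lay with the MyoD and chimera libraries. Cdhr1, a photoreceptor cadherin, was at 10.05 and 3.46 CPM (2.9, 2.31 to 3.66), Vdr, the vitamin D receptor, at 5.3 and 1.97 CPM (2.69, 1.98 to 3.69), and Gabbr2, a GABA-B receptor subunit, at 12.4 and 5.27 CPM (2.35, 1.94 to 2.85). Insc, an adaptor of spindle orientation, was at 9.37 and 3.97 CPM (2.36, 1.9 to 2.95), and Icam1, a leukocyte adhesion molecule, at 9.08 and 4.01 CPM (2.27, 1.82 to 2.83).

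Skeletal muscle structure genes were the list with the largest median difference among lists with at least 6 measured members. Of 29 measured members 24 were higher in WC and 5 lower, the median log2 ratio was 0.33 (0.08 to 0.54, an order-statistic 95% interval over the member genes), and summed levels were 483 CPM in WC and 377 in WCS. Of 15 members at 5 CPM or more, 5 were at least 1.5-fold higher and 0 lower. Among all 11626 genes at that level the shares were 0.714% higher and 0.163% lower, which also apply beside the lists below. Members can pass the 5 CPM minimum through the higher library alone, as Ttn, Des and Tnnt1 did through WC, so these counts, here and for the lists below, are a description only. Those 5 were Ttn, Actc1, Tpm2, Des and Tnnt1. Ttn, the giant spring of the sarcomere, had 219 and 41 counts, or 7.03 CPM in WC and 1.39 in WCS, a ratio of 5.05 (3.6 to 7.23). Its levels elsewhere were 1.58 CPM in GFP, 2.31 in NeuroD2, 4.07 in WCS at MOI 100, 209 in the chimera, 438 in the chimera at MOI 100 and 598 in MyoD. Both mutants thus lay far below the chimera, with WC above GFP and WCS near it.

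Actc1 (ENSMUSG00000068614), the cardiac and fetal muscle actin, had 1078 counts in WC and 560 in WCS. Those are 34.6 and 19 CPM, a ratio of 1.82 (1.64 to 2.02), with 42.3 CPM in GFP, 5.69 in NeuroD2, 3.1 in WCS at MOI 100, 481 in the chimera, 690 in the chimera at MOI 100 and 5163 in MyoD. Both mutants were below GFP, the library without a delivered bHLH factor. Reads shared with the near-identical actin genes, such as Acta2, could be split in counting, which makes single actin values less certain. Tpm2, a tropomyosin, was at 104 and 61.8 CPM (1.69, 1.59 to 1.79), Des, the muscle intermediate filament protein, at 7.9 and 4.65 CPM (1.7, 1.37 to 2.11), and Tnnt1, slow troponin T, at 7.54 and 4.62 CPM (1.63, 1.32 to 2.03). Des and Tnnt1 were also below GFP in both mutants, with 22.6 and 15.1 CPM there. GFP had 79.1 CPM of Tpm2, between WC and WCS. The embryonic myosin Myh3 stood at 5.78 and 5.16 CPM, a ratio of 1.12 whose interval (0.897 to 1.4) includes 1, against 3060.4 CPM in MyoD. Jsrp1, which sits at the junction where muscle calcium is released, is outside the list and was at 6.58 and 1.6 CPM (4.12, 2.99 to 5.79), with 20.8 CPM in the chimera and 1.07 in GFP.

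Myogenic regulators showed less. Of 16 measured members 11 were higher in WC, Myod1 with its delivered sequence among them, with a median of 0.20 and an interval over members (-0.11 to 0.41) that includes 0, and 0 of 13 at 5 CPM were 1.5-fold apart. Cdh15, the muscle cadherin, stood at 1.73 and 0.849 CPM (2.04, 1.25 to 3.42) against 581 CPM in MyoD.

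Genes of cardiac and smooth muscle lay on the same side as the skeletal list. Of 18 measured, 14 were higher in WC, the median was 0.15 (0.01 to 0.46), and 3 of 11 at 5 CPM were at least 1.5-fold higher, all of them smooth muscle genes. Acta2, smooth muscle actin, was at 55.2 CPM in WC and 30.3 in WCS (1.82, 1.68 to 1.97), and at 102 CPM in GFP, 888 in MyoD, 14.5 in NeuroD2, 112 in the chimera, 57.3 in the chimera at MOI 100 and 29 in WCS at MOI 100. Tagln, an actin-binding protein, was at 29.9 and 17.9 CPM (1.67, 1.5 to 1.86) and Myl9, the regulatory light chain, at 14 and 8.02 CPM (1.75, 1.49 to 2.06). All 3 were below GFP in both mutants, where Tagln stood at 108 CPM and Myl9 at 19.6. How far the fibroblast markers, at 7.12 CPM summed in WC and 5.54 in WCS, bear on these genes was not tested.

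**Figure D2:**
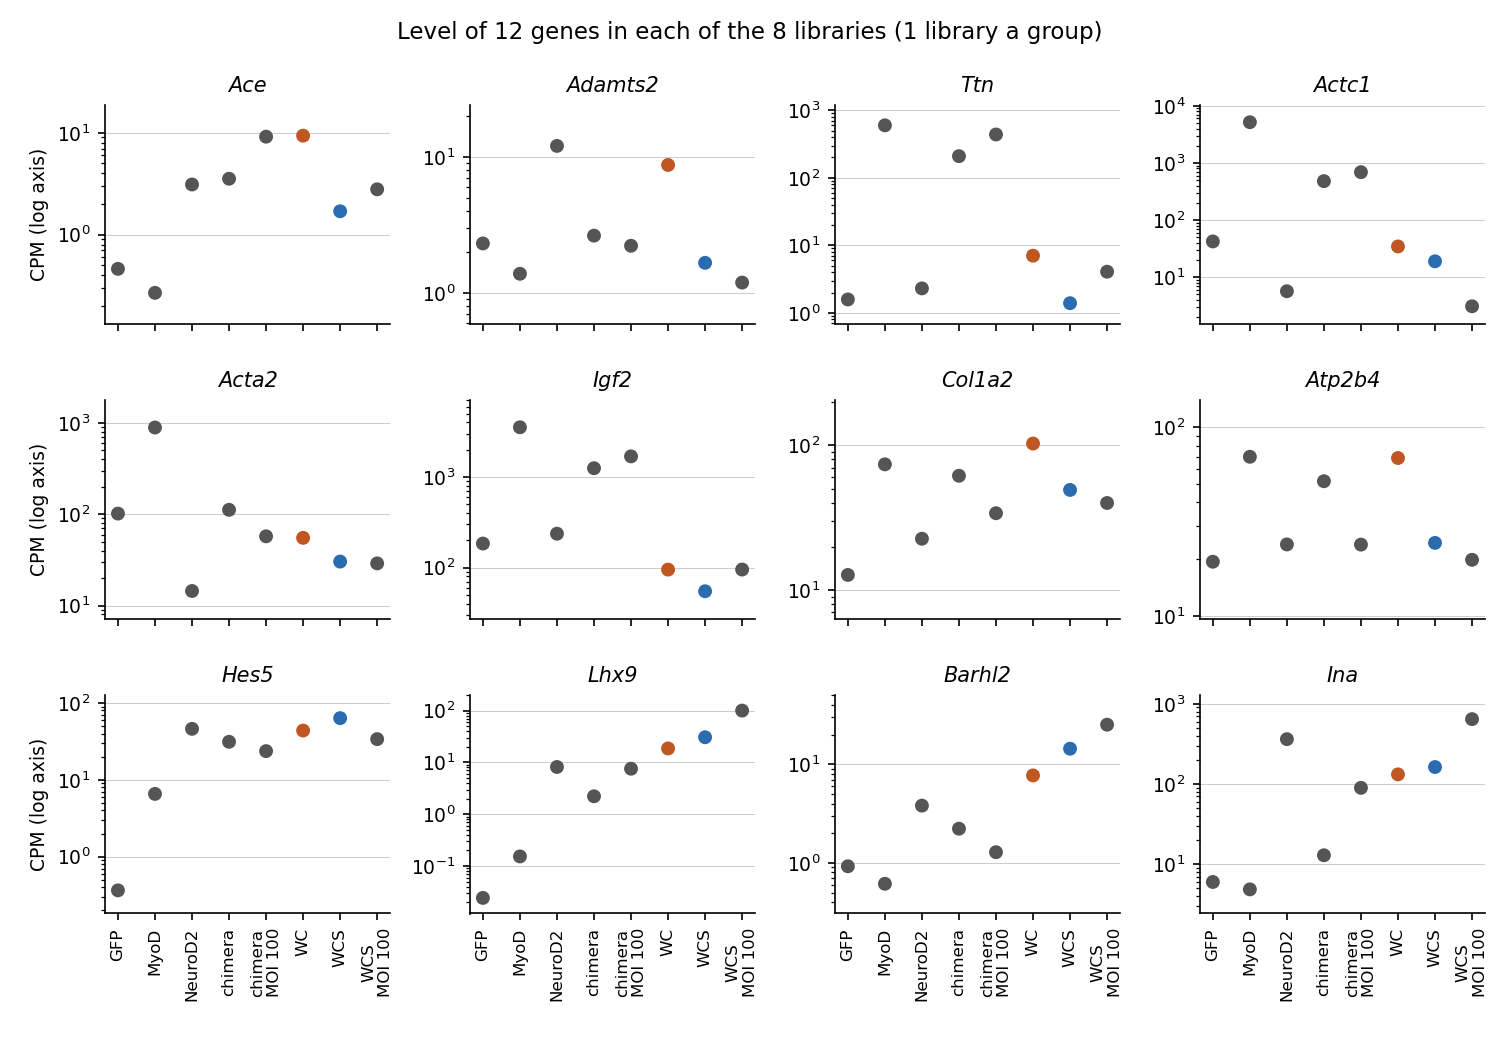
Levels of selected genes in each of the 8 libraries, in CPM on a log axis, 1 point for each library and no error bars since each group has 1 library. Ace stands at 9.37 CPM in WC and 1.7 in WCS, and Lhx9 at 18.6 and 30.6.

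Collagen genes were higher in WC for most members. Of 27 measured, 21 were higher and 6 lower. The median was 0.23 (0.06 to 0.44), with summed levels of 1293 CPM in WC and 1022 in WCS, and 2 of 16 at 5 CPM were at least 1.5-fold higher. Col1a2, a chain of type I collagen, had 3208 and 1449 counts, or 103 and 49.2 CPM (2.09, 1.97 to 2.23), with 12.7 CPM in GFP, 74 in MyoD, 22.6 in NeuroD2, 61.7 in the chimera, 34 in the chimera at MOI 100 and 40.0 in WCS at MOI 100. WC held the highest Col1a2 level of the 8 libraries. The partner chain Col1a1 did not follow it, at 1.64 CPM in WC and 1.6 in WCS (1.03, 0.676 to 1.56). Col26a1 was at 26.2 and 12.9 CPM (2.04, 1.8 to 2.31), and Col18a1, a basement membrane collagen, at 285 and 210 CPM (1.36, 1.32 to 1.41). The basement membrane pair Col4a1 and Col4a2 had nearly the same ratio, 1.25 (1.21 to 1.3) and 1.26 (1.21 to 1.3). Other matrix proteins showed a smaller difference, with 19 of 26 higher, a median of 0.10 and 0 of 20 at 5 CPM past 1.5-fold. Ccn1, a secreted matrix signal of that list, was at 17.5 and 11.5 CPM (1.51, 1.32 to 1.74).

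Extracellular proteases and their inhibitors had 33 of 46 members higher in WC, a median of 0.06 (0.01 to 0.17), and 3 of 33 at 5 CPM at least 1.5-fold higher. The 3 were Ace, Adamts2 and Adamts7, a cartilage matrix protease, the last at 21.2 and 13.6 CPM (1.57, 1.38 to 1.78). Adamts9, of the same family, was at 46.4 and 30.9 CPM (1.5, 1.38 to 1.63). The renin-angiotensin list had 4 measured members, all higher in WC, of which Ace was 1, and Anpep, Lnpep and Atp6ap2 had log2 ratios of 0.27, 0.14 and 0.06.

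Imprinted genes, expressed from 1 parental copy, were mixed apart from a few well-counted genes of growth control. Of 31 measured, 20 were higher in WC, the median was 0.07 (-0.0018 to 0.15), and 1 of 24 at 5 CPM was past 1.5-fold. That gene was Igf2 (ENSMUSG00000048583), a fetal growth factor, with 2960 counts in WC and 1613 in WCS, or 95 and 54.8 CPM. The ratio was 1.73 (1.63 to 1.84), and the other libraries stood at 184 CPM in GFP, 3540 in MyoD, 237 in NeuroD2, 1250 in the chimera, 1689 in the chimera at MOI 100 and 95.1 in WCS at MOI 100. Both mutants were below GFP, and WCS at MOI 100 had the level of WC. H19, the non-coding RNA of the same domain, was at 19.2 and 13.8 CPM (1.39, 1.22 to 1.58), and Igf2os, antisense to Igf2, at 5.07 and 2.82 CPM (1.8, 1.37 to 2.38). Whether counting used strand is not given in the sources used here. Reads of Igf2 and Igf2os cannot be told apart. Peg10, a retrotransposon-derived gene, had a tight interval at 1224 and 836 CPM (1.46, 1.44 to 1.49), and Plagl1, a zinc-finger regulator of imprinted genes, was at 402 and 313 CPM (1.29, 1.25 to 1.32).

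Higher in WCS were regulators and surface proteins of developing neurons. Of 43 neurogenic regulators 27 were lower in WC and 16 higher, Neurod2 with its delivered segment among the latter, with a median of -0.02 (-0.15 to 0.01), and 2 of 36 at 5 CPM were past 1.5-fold, both lower in WC. Lhx9, a LIM-homeodomain factor of the dorsal nervous system, had 580 counts in WC and 902 in WCS, or 18.6 and 30.6 CPM, and was 1.65-fold higher in WCS (1.48 to 1.83). Its levels were 0.0243 CPM in GFP, 0.154 in MyoD, 8.18 in NeuroD2, 2.22 in the chimera, 7.57 in the chimera at MOI 100 and 100.2 in WCS at MOI 100. Barhl2, a homeobox factor of the diencephalon and spinal cord, was at 7.7 and 14.4 CPM, 1.87-fold higher in WCS (1.59 to 2.19), with 25.2 CPM in WCS at MOI 100 and 0.614 to 3.81 CPM in the other 5 libraries. For both genes the 3 mutant libraries were above all of the others, and within the mutants both WCS libraries were above WC.

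Other genes lowest in WC over WCS were of varied function. Ppp1r17, a phosphatase inhibitor known from Purkinje cells, was at 7.09 CPM in WC and 14.2 in WCS, 2-fold higher in WCS (1.7 to 2.37). On the log2(CPM + 0.5) scale its ratio was -0.95, just short of 2-fold. The 2 genes past 2-fold lower on that scale were Rpl27-ps2, given below, and ENSMUSG00000068545, which has no symbol. The latter was at 2.05 and 6.66 CPM (3.24-fold higher in WCS, 2.43 to 4.37). Ptprz1, a receptor phosphatase of neural progenitors and glia, was at 16.1 and 28 CPM (1.74-fold, 1.55 to 1.95), Dscam, a neuronal adhesion molecule, at 4.11 and 7.44 CPM (1.81-fold, 1.45 to 2.27), and Shox2, a homeobox factor, at 6.32 and 10.7 CPM (1.69-fold, 1.41 to 2.03). Grhl3, an epithelial regulator needed for neural tube closure, was at 15.9 and 27.7 CPM (1.74-fold, 1.55 to 1.95). The epithelial gene Epcam went the other way, at 19.3 CPM in WC and 10.7 in WCS, a ratio of WC to WCS of 1.8 (1.57 to 2.07).

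Neuronal structure genes differed little and mostly toward WCS. Of 79 measured, 51 were lower in WC and 28 higher. The median was -0.07 (-0.10 to -0.01), and 0 of 73 at 5 CPM were 1.5-fold apart in either direction. Cntn2, an axonal adhesion protein, was at 62 and 88.1 CPM, 1.42-fold higher in WCS (1.34 to 1.51), and Gpm6b, a membrane glycoprotein, at 26.6 and 38.2 CPM (1.44-fold, 1.31 to 1.57). Ina, a neuronal intermediate filament, was at 132 and 163 CPM (1.24-fold, 1.18 to 1.29), Map2, the dendritic microtubule protein, at 277 and 325 CPM (1.17-fold, 1.14 to 1.21), and Tubb3, neuronal tubulin, at 726 and 834 CPM (1.15-fold, 1.13 to 1.17). Dcx, the microtubule protein of migrating neurons, was at 167 and 171 CPM, with a ratio of WCS to WC of 1.02 (0.985 to 1.06). The summed level of the list was 7440 CPM in WC and 7756 in WCS, so the list as a whole was not far apart. Against it, Robo2, an axon guidance receptor in the same list, was higher in WC at 45.2 and 30.3 CPM (1.49, 1.37 to 1.62), and Cntn1, an adhesion protein, at 34.6 and 24.1 CPM (1.44, 1.31 to 1.58).

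Neural progenitor and Notch genes had 26 of 33 members lower in WC, a median of -0.09 (-0.21 to -0.03) and 0 of 30 at 5 CPM past 1.5-fold. Hes5, a Notch target that holds back differentiation, was at 43.8 and 63.6 CPM, 1.45-fold higher in WCS (1.35 to 1.56), and at 0.365 CPM in GFP. The Id genes, whose products block bHLH pairing, were all lower in WC: Id1 at 16 and 21 CPM, Id2 at 52.6 and 63, Id3 at 11.4 and 15.1 and Id4 at 62.8 and 77.3. Their WCS over WC ratios ran from 1.2 (1.12 to 1.28) for Id2 to 1.33 (1.15 to 1.53) for Id3. The wider list of E-proteins, Id, Pbx and Meis genes had 12 of 18 lower, with a median of -0.07.

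Of the Wnt pathway list, 18 of 32 were lower in WC, with a median of -0.03. Among Wnt ligands, in that list or outside it, Wnt7b was at 5.3 and 9.44 CPM (1.78-fold higher in WCS, 1.47 to 2.18), Wnt8b at 5.68 and 9 (1.58-fold, 1.31 to 1.93) and Wnt5b at 19.7 and 29.7 (1.51-fold, 1.36 to 1.67). Ligands of lower level lay on both sides. Wnt6, at 0.931 and 1.6 CPM, was 1.72-fold higher in WCS (1.06 to 2.83). Ratios of WC to WCS were 1.63 (1.06 to 2.53) for Wnt9a, at 1.99 and 1.22 CPM, 1.47 (0.996 to 2.19) for Wnt10b and 1.4 (0.838 to 2.37) for Wnt11. Of 12 measured Wnt ligands 8 were lower in WC and 4 higher.

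Genes of cholesterol synthesis shared a small difference toward WCS. Of 29 measured members 24 were lower in WC and 5 higher, and the median was -0.19 (-0.25 to -0.13). The counting interval was clear of 1 toward WCS for 21 and toward WC for 2. Of all 14038 measured genes it was clear toward WCS for 1838 and toward WC for 1879. Well-counted genes clear 1 at small folds, as 55 of 80 cytosolic ribosomal protein genes did toward WCS. None of the 28 at 5 CPM was 1.5-fold apart, so the list shows only at small folds. Msmo1, a sterol demethylation enzyme, was at 145 and 190 CPM (1.31-fold higher in WCS, 1.26 to 1.36), Nsdhl, the next enzyme of that step, at 70.9 and 90.8 (1.28-fold, 1.21 to 1.36), and Lss, which closes the sterol rings, at 159 and 198 (1.24-fold, 1.2 to 1.29). Idi1, of the isoprenoid steps, was at 260 and 321 CPM (1.23-fold, 1.2 to 1.27) and Cyp51 at 318 and 379 (1.19-fold, 1.16 to 1.22).

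**Figure D3:**
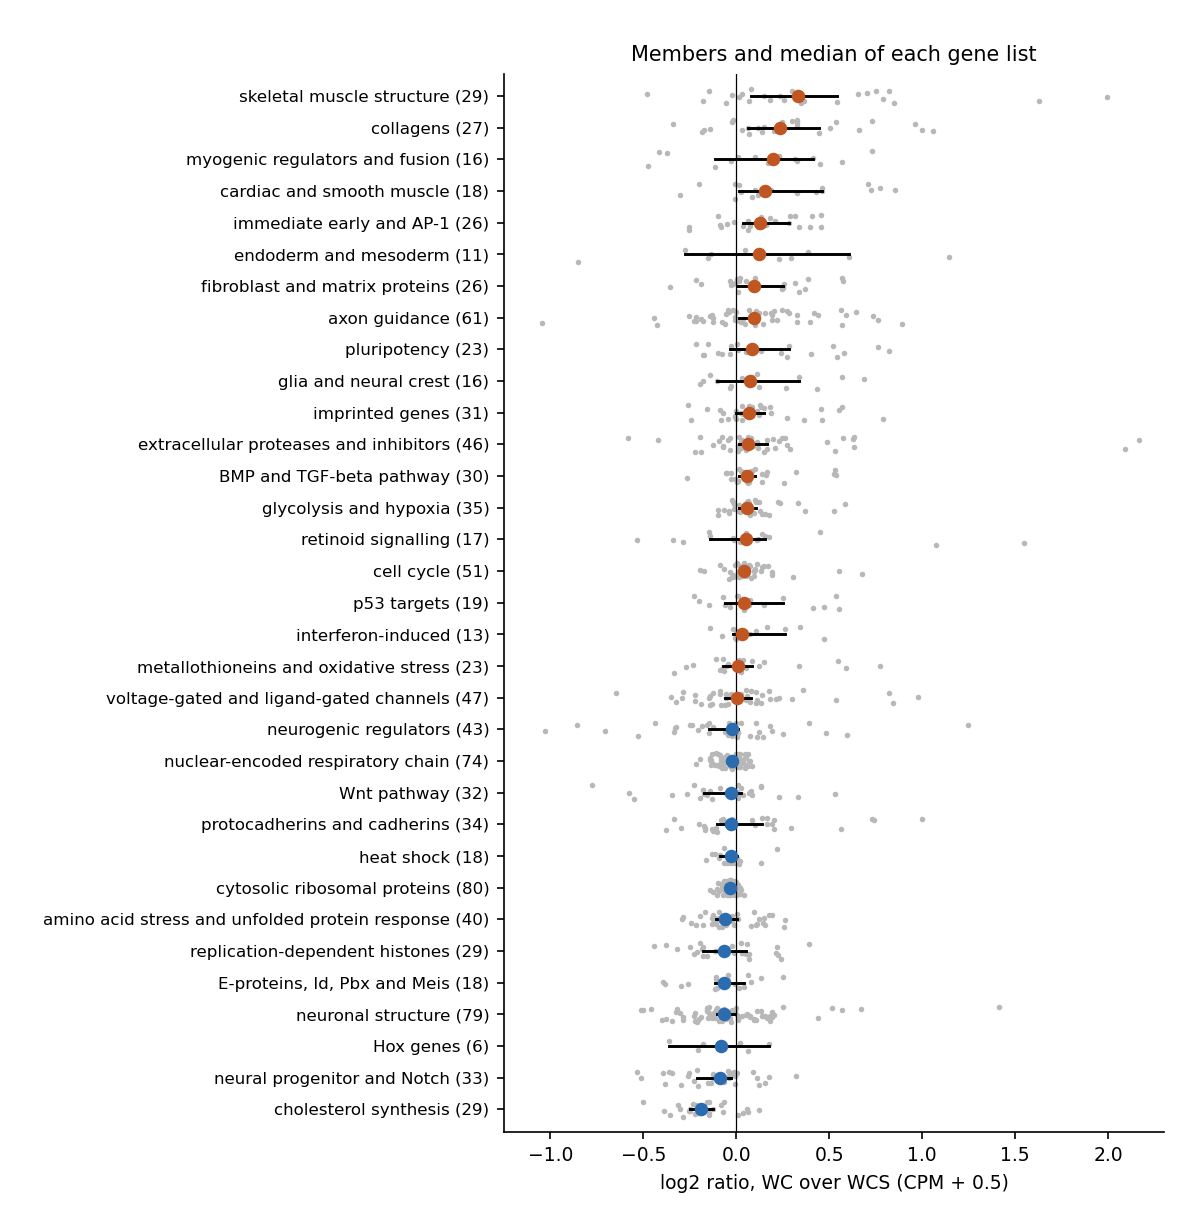
Log2 ratio of WC to WCS for the members of each gene list with at least 6 measured members: small dots are genes, the larger mark is the list's median and the bar its order-statistic 95% interval over members. Skeletal muscle structure, at 0.33, lies farthest to the WC side and cholesterol synthesis, at -0.19, farthest to the WCS side.

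Axon guidance genes leaned to WC. Of 61 measured, 39 were higher, the median was 0.09 (0.01 to 0.12), and 4 of 51 at 5 CPM were at least 1.5-fold higher, with 0 lower. Nrp2, a receptor for semaphorins, was at 46.8 and 25 CPM (1.87, 1.71 to 2.05), with 8.9 CPM in GFP, 118 in NeuroD2, 104 in the chimera and 215 in the chimera at MOI 100. Sema6c was at 134 and 79 CPM (1.7, 1.62 to 1.79), Sema3c at 24.5 and 15.5 (1.58, 1.41 to 1.78) and Slit1, a repellent ligand, at 23.5 and 13.9 (1.69, 1.49 to 1.91). In the channel list, 24 of 47 were higher and the median was 0.00, with Kcnq3, a potassium channel, higher in WC at 15.2 and 8.42 CPM (1.81, 1.55 to 2.12) and Gabra3, a GABA receptor subunit, higher in WCS at 4.14 and 6.76 CPM (1.63-fold, 1.3 to 2.05). Slc17a7, the vesicular glutamate transporter, is outside these lists and was at 23.9 and 13.8 CPM (1.74, 1.54 to 1.97).

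Most cell cycle genes were slightly higher in WC, with 41 of 51 above 1, a median of 0.04 (0.03 to 0.06) and members from -0.20 to 0.68. Only Ccnd1, cyclin D1, was past 1.5-fold, at 26 and 16.1 CPM (1.62, 1.44 to 1.81). Ccnd2 was at 363 and 294 CPM (1.23, 1.2 to 1.27), and Cdkn1a, an inhibitor of cyclin-dependent kinases, was also higher in WC, at 8.99 and 5.98 CPM (1.5, 1.24 to 1.83). The pluripotency list had 15 of 23 members higher in WC, with a median of 0.09 (-0.04 to 0.29), and 2 of 20 past 1.5-fold: Epcam, given above, and Tdgf1, a co-receptor for Nodal, at 6.58 and 3.67 CPM (1.79, 1.41 to 2.29). Its core factors disagreed in direction, with Nanog at 66.6 and 54.6 CPM (1.22, 1.14 to 1.3), Pou5f1 at 304 and 278 (1.09, 1.06 to 1.13) and Sox2 at 181 and 205 (1.13-fold higher in WCS, 1.09 to 1.17).

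The metallothionein and oxidative stress list was level, with 12 of 23 higher and a median of 0.01. Its metal-binding members Mt1 and Mt2 were both higher in WC: Mt2 was at 28 and 16.2 CPM (1.73, 1.55 to 1.94), Mt1 at 42.1 and 28.7 (1.47, 1.35 to 1.6), and Slc30a1, a zinc exporter, at 12.4 and 8.08 (1.54, 1.3 to 1.81). Slc39a10, a zinc importer, went the other way at 183 and 221 CPM (1.21-fold higher in WCS, 1.16 to 1.25). Immediate early genes had 19 of 26 higher in WC and a median of 0.13 (0.03 to 0.28), among them Nr4a1, an orphan nuclear receptor, at 9.21 and 6.59 (1.4, 1.16 to 1.69). Of the BMP and TGF-beta pathway 24 of 30 were higher, with a median of 0.06 (0.02 to 0.10), and of glycolysis and hypoxia genes 26 of 35, with a median of 0.06.

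Large housekeeping families differed by a few percent. Of 80 cytosolic ribosomal protein genes 69 were lower in WC, with a median of -0.04 (-0.04 to -0.03) and no member beyond -0.14. Of 74 nuclear-encoded respiratory chain genes 53 were lower, with a median of -0.03 (-0.05 to -0.02). Both families have short transcripts, with median lengths (longest GENCODE vM21 transcript) of 1076.5 and 1093.5 bases against 3344 over all measured genes. Across all measured genes with a length, the shortest of 5 equal bins had a median log2 ratio of -0.02 and 42.3% of genes above 1, and the longest 0.03 and 60.9%. Centred on genes of like length (an alternative chosen after seeing the data), the ribosomal and respiratory medians came to -0.01 and -0.01. The cause of the length trend was not tested. After the same centring the median was 0.21 for collagen genes, with a median length of 5658 bases, and -0.18 for cholesterol synthesis genes, with 4028 bases.

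Grouped by the letters of their symbols, 199 families had 8 or more measured members. The lowest median, -0.38, was that of symbols starting with Pcsk, with 1 of 8 above 1. This mechanical group mixes proprotein convertases, which cut prohormones, with the inhibitor Pcsk1n and with antisense RNAs of Pcsk2, whose reads cannot be told apart from those of Pcsk2 without strand. Pcsk2 was at 13.1 and 19.4 CPM (1.48-fold higher in WCS, 1.3 to 1.68) and at 114 CPM in WCS at MOI 100, and Pcsk1n at 16.6 and 20.5 CPM (1.24-fold, 1.1 to 1.4), while Pcsk7 stood at 15.8 CPM in both. The interval over members of that median, -0.59 to 0.28, includes 0. In a family of 8 members this interval is the full range from the lowest to the highest member. Next came symbols starting with Lhx, LIM-homeobox genes and the antisense RNA Lhx1os, at -0.21 (-0.70 to 1.25, 3 of 8 above 1), and the Wnt ligands at -0.19 (-0.58 to 0.33, 4 of 12). Symbols starting with Sox, which include the non-coding Sox1ot, stood at -0.15 (-0.23 to 0.09, 4 of 13), and cytochromes P450 at -0.12 (-0.23 to -0.02, 3 of 18). Of these 5 intervals over members, that of the cytochromes P450 alone did not include 0. Families here and below were picked from the 199 by these same medians, so an interval clear of 0 is a description only. Within the Lhx group Lhx9, Lhx5 (18.5 and 25.3 CPM, 1.37-fold higher in WCS, 1.22 to 1.53) and Lhx2 (78.7 and 98.7 CPM, 1.25-fold, 1.19 to 1.32) were lower in WC, and Lhx1 stood at 12.3 and 12.1 CPM. The largest difference in the group was that of Lhx4, a factor of motor neurons and pituitary, which was higher in WC at 4.4 and 1.56 CPM (2.81, 2 to 4.02), and Lhx3 was higher in WC at 3.08 and 1.87 CPM (1.65, 1.17 to 2.34).

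The families with the highest medians were the Eph receptors Epha at 0.23 (-1.04 to 0.46, 6 of 8 above 1), symbols starting with Col at 0.20 (0.03 to 0.33, 21 of 29) and integrin alpha chains at 0.15 (-0.24 to 0.43, 5 of 8). They were followed by Chd chromatin remodellers at 0.13 (0.01 to 0.16, 9 of 10), Zkscan zinc-finger factors at 0.13 (-0.05 to 0.28, 7 of 9) and Dusp phosphatases at 0.11 (0.05 to 0.31, 15 of 19). Chd transcripts are long, with a median of 8797 bases against 3344 over all measured genes, and families by symbol were not centred on length. The intervals of the Epha, integrin and Zkscan families include 0, and those of Epha and the integrins, with 8 members each, are the full range of members. Epha5, with the largest difference among the Epha genes, was lower in WC at 0.995 and 2.58 CPM (0.385, 0.245 to 0.592). Chd4, a subunit of the NuRD complex, was at 981 and 868 CPM (1.13, 1.11 to 1.15) and Chd7 at 266 and 238 CPM (1.12, 1.08 to 1.15). Dusp4, which switches off MAP kinases, was at 85.6 and 62.2 CPM (1.38, 1.3 to 1.46), and Dusp6 at 17.3 and 12.9 CPM (1.34, 1.17 to 1.53).

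Genes that MyoD and NeuroD2 each activate were drawn from the GFP, MyoD and NeuroD2 libraries alone and then read in WC and WCS. MyoD-activated genes, at least 4-fold above both GFP and NeuroD2, numbered 277, of which 148 were measured here. Of these, 101 (68.2%) were higher in WC, against 49.6% of all measured genes, with a median of 0.09 (0.06 to 0.18). At 5 CPM 11 of 82 (13.4%) were at least 1.5-fold higher and 1 (1.22%) lower, against 0.714% and 0.163% of all 11626 genes. Drawn at 8-fold, the set had a median of 0.30. Of 478 NeuroD2-activated genes 462 were measured, 194 (42%) were higher in WC, and the median was -0.06 (-0.08 to -0.02). At 5 CPM 10 of 372 (2.69%) were 1.5-fold higher and 11 (2.96%) lower. The 37 genes that both factors activate gave 17 above and 20 below 1, a median of -0.0023, and 2 of 32 past 1.5-fold higher. Members of these sets can pass the 5 CPM minimum through the higher library alone. Ttn, Jsrp1, Des and Tnnt1, all MyoD-activated, did so through WC, so the counts at 5 CPM are a description only. In 10 equal bins of all measured genes by MyoD over NeuroD2, the bin most toward NeuroD2 had 45.7% of genes above 1 and a median of -0.02, and the bin most toward MyoD 63.7% and 0.05 (0.04 to 0.06). Across genes, not replicates of one another, Spearman's rho of that ratio with WC over WCS was 0.139, a weak relation. Taken apart, rho was -0.018 for MyoD over GFP and -0.135 for NeuroD2 over GFP. Transcript length gave a rho of 0.126.

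**Figure D4:**
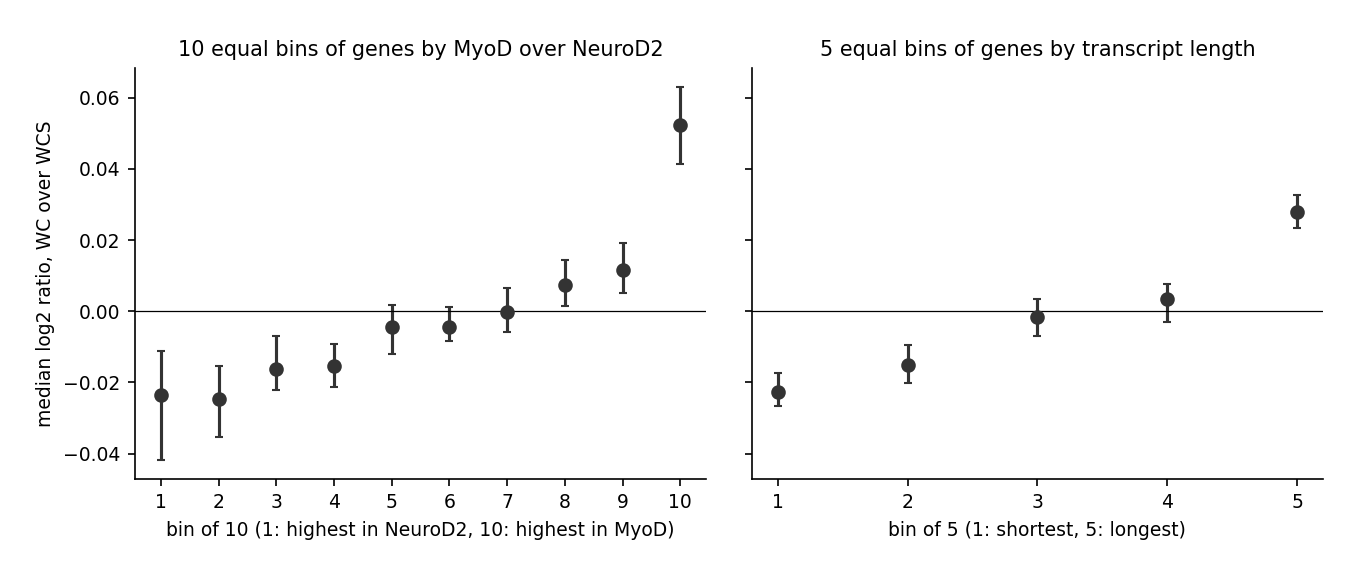
Median log2 ratio of WC to WCS, with its order-statistic 95% interval over genes, in 10 equal bins of genes by MyoD over NeuroD2 and in 5 by transcript length. The bin most toward MyoD stands at 0.05 and the bin with the longest transcripts at 0.03, and the other medians lie nearer to 0.

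Many of the genes past 1.5-fold also differed between the chimera and GFP. Over GFP, the 83 genes higher in WC had a median log2 ratio of 1.39 in the chimera, and 54 of them (65.1%) were at least 1.5-fold and 33 (39.8%) at least 4-fold higher there, against 16.1% and 2.3% of all 11626 genes. From the chimera to the chimera at MOI 100 their median was 0.50, with 37 (44.6%) at least 1.5-fold higher and 23 (27.7%) lower, against 11.9% and 10.7% of all. Their median in MyoD over NeuroD2 was -0.04, with 36 (43.4%) at least 1.5-fold toward MyoD and 34 (41%) toward NeuroD2, against 14% and 19% of all. The 19 genes lower in WC had medians of 2.61 in NeuroD2 over GFP and -3.27 in MyoD over NeuroD2, and 16 of 19 (84.2%) were at least 1.5-fold higher in NeuroD2 than in GFP, against 23.5% of all. Both traits were found on both sides. Of the 83 genes higher in WC, 43 (51.8%) were at least 1.5-fold higher in NeuroD2 than in GFP. Of the 19 lower genes, 15 (78.9%) were at least 1.5-fold higher in the chimera than in GFP. The 4-fold lower gene was Rpl27-ps2, a pseudogene of Rpl27, with 5 counts in WC and 452 in WCS. Its near-identical parent Rpl27 stood at 506 and 511 CPM, and how reads were split between the copies is not given in the sources used here. The Rpl27-ps2 value is therefore uncertain.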

How the data were processed

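RNA-seq gene counts of 8 P19 libraries were used. The deposited table holds whole-number read counts per Ensembl gene. Per the submitters' processing notes, the tools were CASAVA 1.8.2 and TopHat2 2.0.8 on mm9. How reads were counted, with which annotation and strand use, is not given in the sources used here. Symbols matched 32850 of 37558 genes (87.46%), and genes without one held 1.42% of counts in WC and 1.45% in WCS. TMM factors over all 8 libraries (edgeR 4.0.16, R 4.3.3) gave CPM, with a pseudocount of 0.5 CPM in log2 ratios. Other steps, tested on simulated data, ran in Python 3.11.15 (numpy 2.4.6, pandas 2.3.3, matplotlib 3.10.9, scipy 1.17.1).

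Genes were named by rule: the markers Ace, Adamts2, Igf2 and Actc1, the delivered factors, the fixed cell type markers, the 15 highest and 15 lowest by the bound of the counting interval closest to a ratio of 1, and up to 4 members of each of 35 lists, of the 6 highest and 6 lowest families and of each activated set. Outside the rule, some genes were chosen after their values were seen. They were Anpep, Col4a1, Col4a2, Epha5, Lhx3, Lhx4, Wnt6, Wnt9a, Wnt10b, Wnt11, Igf2os, Mgat5b, Syk, Prrx2, Rpl27, Rpl27-ps2, Tnnt1 and ENSMUSG00000068545. The members and lists were chosen with earlier results of these data known. None of 15 mitochondrially encoded symbols was matched. Alternatives were DESeq2 1.42.0 size factors, total counts, TMM over the pair, a pseudocount of 2 CPM, other minimum levels, an 8-fold set definition, and centring on transcript length or GC content. Some items are not reported here.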

Additional observations from a re-analysis of the deposited data

How the results depend on the processing

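Scaling left the log2 ratio of every named gene on the same side of 0. The median of all measured genes was -0.0013 with TMM factors, -0.0091 with DESeq2 size factors and 0.0020 with total counts. Medians close to 0 crossed it: channels at -0.0062 with DESeq2 size factors, -0.02 at 5 CPM and -0.01 centred by length, interferon-induced genes at -0.0031 at 5 CPM, metallothioneins at -0.0041 centred by GC content and the shared set at 0.01 centred by length. The number of genes past a fold moved by more than 1.5 times with the minimum level and the pseudocount. With no minimum, 254 genes were 1.5-fold higher and 91 lower in WC, 42 and 7 at 2-fold, and 4 higher at 4-fold. With a minimum of 20 CPM, 34 and 4 were left at 1.5-fold, 2 and 0 at 2-fold and 0 and 0 at 4-fold, by construction fewer genes. A pseudocount of 2 CPM left 9 at 2-fold and 0 at 4-fold higher, since it shrinks the ratios of low genes. A minimum of 5 CPM in the mean of the pair, chosen after seeing the data, left 1 gene 2-fold lower. Members at 5 CPM alone gave the histone list a median of 0.215 from its 1 member, against -0.07. With sets drawn at 8-fold, the medians were 0.30 for MyoD-activated and -0.10 for shared genes, and the cause was not tested. Centring on genes of like transcript length, also chosen after seeing the data, brought the ribosomal protein median to -0.0144 and the respiratory chain median to -0.0093. No paired analysis was possible because each mutant has 1 library without a replicate number, and no library could be left out for the same reason. Depth limits genes under about 5 CPM, where counting noise is as wide as the spread of the ratios.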
